A study of Mus musculus with 2 samples.

Results

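Gm38246 (ENSMUSG00000103464.1) is a mouse gene of 1 exon that GENCODE M21 lists as a long intergenic noncoding RNA at chr3:51103660-51105170 on the plus strand (GRCm38). Its transcript is 1511 nt long. The small RNAs described here are all deposited sequences of 18 to 40 nt that match this transcript exactly and over their whole length, on either strand. They numbered 2267 of 12118721 distinct sequences in Tdrkh-/- and 2304 of 11808018 in Tdrkh+/-, and carried 425094 and 76990 reads. Of these sequences, 665 in Tdrkh-/- and 568 in Tdrkh+/- matched none of the other genes among the 55450 in the annotation, and 1602 and 1736 matched another gene too. The libraries had 990 of 3581 sequences in common, which carried 97.8% of the Gm38246 reads in Tdrkh-/- and 94.2% in Tdrkh+/-. The gene was selected on the log2 ratios of its summed reads of 24 to 30 nt and of 31 to 37 nt, both higher in Tdrkh-/-, so those sums are given as a description.

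The study sequenced small RNAs from whole testes of mice at 11 days after birth, with 1 library per genotype, each from 5 pooled pairs of testes. Tdrkh-/- mice had both alleles of Tdrkh deleted for exons 2 to 4, and the Tdrkh+/- controls carried 1 such deleted allele as well. The deletion was made with a germline EIIa-Cre transgene that was bred out, on a mixed C57Bl6/129 background, and which of the study's knockout lines gave the library is not given in the sources used here. With 1 library per genotype nothing below has a replicate check, and every interval is a 95% interval for counting error only. In RNA from whole testis, fewer cells of a type and less RNA per cell cannot be told apart.

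The libraries held 60973266 reads in Tdrkh-/- and 43172204 in Tdrkh+/-, with 2481662 and 2351278 microRNA reads, which served as the scale. Levels are reads per 1000 microRNA reads, and every log2 ratio is Tdrkh-/- over Tdrkh+/-. The share of all reads with 24 to 30 nt was 24.2% in Tdrkh-/- and 71.7% in Tdrkh+/-, and that with 31 to 37 nt was 53.2% and 15.2%. Marker genes of germ, Sertoli, Leydig and peritubular cells all had reads of this first size in both libraries. The 4 germ cell genes had 70 to 453 such reads in Tdrkh-/- and 210 to 2835 in Tdrkh+/-, each with fewer in Tdrkh-/-, and the 4 Sertoli cell genes had 32 to 266 and 33 to 294. Of all 3614 genes with at least 500 sense reads of this size, 71.8% lay 2-fold or more lower in Tdrkh-/-, so fewer reads was the usual direction. The peritubular genes had more in Tdrkh-/-, with 627 and 243 for Myh11 and 139 and 111 for Acta2. The Leydig cell genes went both ways, with 254 and 537 for Star and 10 and 2 for Cyp17a1. Mir202, a microRNA of Sertoli cells, had 790 and 668 microRNA reads, and Mir34c, a microRNA of meiotic germ cells, had 119 and 549. These are small RNA reads and not messenger RNA levels, and the part of cell composition in the values below was not tested.

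PIWI-interacting RNAs (piRNAs) are small RNAs of germ cells that guide PIWI proteins to transposon and other transcripts. Primary piRNAs are cut from long single-stranded precursors, mostly begin with U, and have their 3′ ends trimmed to the length a PIWI protein protects. Secondary piRNAs arise when a PIWI protein slices a transcript opposite a guide, so that pairs on opposite strands overlap by 10 nt and the sliced partner tends to carry A at base 10. TDRKH, which sits on mitochondria and carries Tudor and KH domains, is known in mouse as the partner of the exonuclease PNLDC1 in 3′ trimming. Below, 24 to 30 nt is called piRNA size and 31 to 37 nt long.

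The most abundant small RNA of Gm38246 was a sense RNA of 27 nt with its 5′ end at transcript position 800, at chr3:51104459-51104485. It is shown because it sets the gene's piRNA-size sum. In the 70 nt around it (positions 780 to 849, chr3:51104439-51104508, plus strand) capitals mark the 27 nt, and in the other reads capitals mark the bases that lie outside them, at the 3′ or the 5′ side. All are written as DNA.
Region of the transcript: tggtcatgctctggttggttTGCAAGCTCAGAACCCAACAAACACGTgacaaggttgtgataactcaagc
Read of 27 nt: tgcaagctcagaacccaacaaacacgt
Read of 28 nt: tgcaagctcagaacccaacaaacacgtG
Read of 35 nt: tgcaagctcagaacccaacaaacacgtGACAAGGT
Read of 38 nt: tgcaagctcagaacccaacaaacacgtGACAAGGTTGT
Read of 33 nt with the same 3′ end: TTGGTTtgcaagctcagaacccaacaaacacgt
Read of 29 nt with the same 3′ end: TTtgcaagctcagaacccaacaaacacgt
Read of 28 nt with the same 3′ end: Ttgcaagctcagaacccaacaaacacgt

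The sequences that match no other gene are shown by their most abundant members, since only these place reads on Gm38246 within the annotation. Capitals mark bases 1 and 10, the bases that differ between primary and secondary piRNAs.
Sense 1006 to 1031, 26 nt: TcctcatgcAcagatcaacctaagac
Sense 1006 to 1034, 29 nt: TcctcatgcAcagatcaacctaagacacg
Sense 970 to 996, 27 nt: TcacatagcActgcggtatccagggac
Sense 897 to 930, 34 nt: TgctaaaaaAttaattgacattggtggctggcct
Sense 932 to 964, 33 nt: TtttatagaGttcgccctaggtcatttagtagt
Sense 750 to 784, 35 nt: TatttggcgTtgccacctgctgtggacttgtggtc
Antisense 1015 to 990, 26 nt: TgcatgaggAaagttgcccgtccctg

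The summed piRNA-size reads of Gm38246 were 302125 in Tdrkh-/- and 68448 in Tdrkh+/-, or 122 and 29.1 per 1000 microRNA reads, a log2 ratio of 2.06 (2.05 to 2.08). Long reads numbered 102371 and 6107, or 41.3 and 2.60 per 1000 microRNA reads, a log2 ratio of 3.99 (3.95 to 4.03). Reads of 18 to 23 nt numbered 4344 and 1942, with a log2 ratio of 1.08 (1.01 to 1.16). There were 0.339 long reads per piRNA-size read in Tdrkh-/- and 0.0892 in Tdrkh+/-. For ranks, sense reads were divided equally among the genes they match on the same strand. Genes matched on the opposite strand took no part in this division. By this measure Gm38246 ranked 1 of 32686 genes at piRNA size in Tdrkh-/- and 13 in Tdrkh+/-, and 8 and 40 among long reads.

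A single 5′ end carried most of these reads, and the higher piRNA-size sum rested on it. Reads that begin at position 800 numbered 283837 in Tdrkh-/- and 48412 in Tdrkh+/- at piRNA size, 93.9% (93.9 to 94.0) and 70.7% (70.4 to 71.1) of the gene's reads there, with a log2 ratio of 2.47 (2.46 to 2.49). Its long reads numbered 73203 and 2336, or 71.5% and 38.3% of the gene's long reads, with a log2 ratio of 4.89 (4.83 to 4.95). Without this 5′ end, 18288 and 20036 piRNA-size reads were left, a log2 ratio of -0.21 (-0.24 to -0.18), while 29168 and 3771 long reads were left, a log2 ratio of 2.87 (2.82 to 2.92). The name of a gene raised at both lengths therefore applied to the whole sum and to position 800, whereas the summed piRNA-size reads of the rest of the transcript were slightly lower. Single ends of the rest went both ways, as described below.

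**Figure D1:**
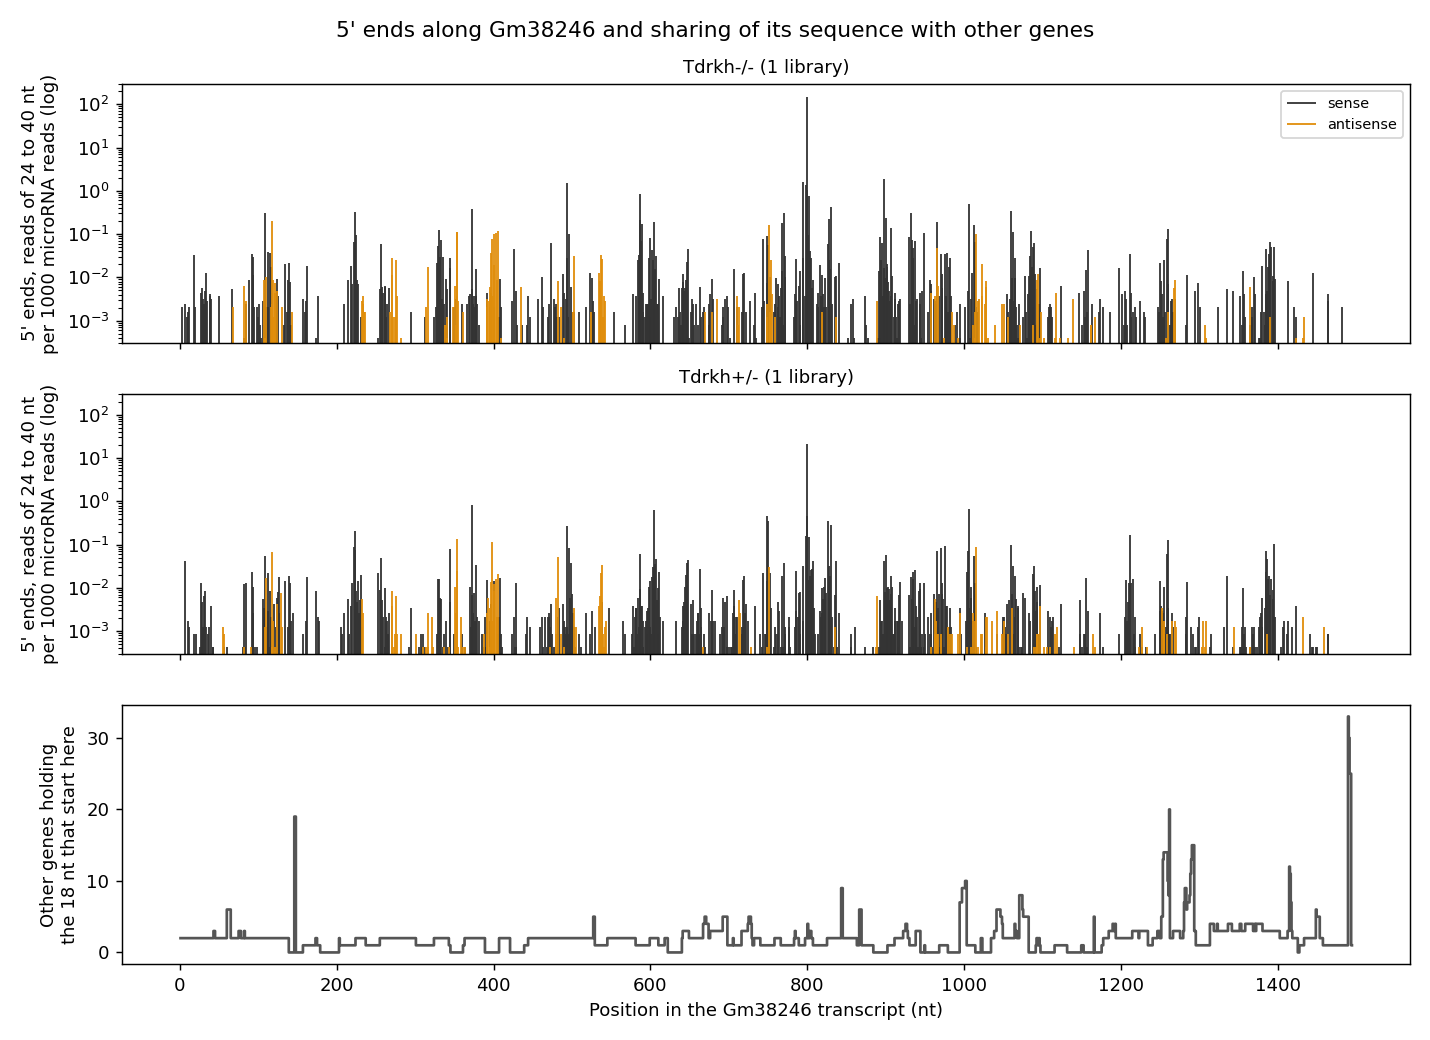
The 2 upper panels plot reads of 24 to 40 nt per 1000 microRNA reads (log axis) by the transcript position of their 5′ end, for 1 Tdrkh-/- and 1 Tdrkh+/- library, with sense and antisense ends in separate colours; the lowest panel gives how many other genes hold the 18 nt starting at each position. The sense end at position 800 stands far above all others in both libraries, at 149 and 21.6 per 1000 microRNA reads.

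Sequences that match no other gene showed the same split between the lengths. At piRNA size they had 3041 reads in Tdrkh-/- and 3977 in Tdrkh+/-, a log2 ratio of -0.46 (-0.53 to -0.40). Among long reads they had 10915 and 1394, a log2 ratio of 2.89 (2.81 to 2.97). They made up 1.01% and 5.81% of the gene's piRNA-size reads and 10.7% and 22.8% of its long reads. Their long reads outnumbered their piRNA-size reads in Tdrkh-/-, at 3.59 to 1, whereas the ratio in Tdrkh+/- was 0.351. Sequences that match another gene too had log2 ratios of 2.14 (2.12 to 2.15) and 4.20 (4.16 to 4.24), and, without the 5′ end at position 800, of -0.15 (-0.18 to -0.12) and 2.86 (2.80 to 2.93). With that end left out, both classes lay below 0 at piRNA size, the unshared one lower, and both were higher among long reads. The shared class then had 1.20 long reads per piRNA-size read in Tdrkh-/-.

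From the shared start at position 800, the libraries differed in where reads stopped. The 27 nt read numbered 274969 in Tdrkh-/- and 32587 in Tdrkh+/-, a log2 ratio of 2.999 (2.98 to 3.02). The read 1 nt longer went the other way, at 2190 against 12668 reads, a log2 ratio of -2.61 (-2.68 to -2.54). There were 126 reads of 27 nt for each read of 28 nt in Tdrkh-/- and 2.57 in Tdrkh+/-. The 27 nt length took 96.9% of the piRNA-size reads from this 5′ end in Tdrkh-/- and 67.3% in Tdrkh+/-.

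Longer reads from the same 5′ end fell on few lengths. The 35 nt read numbered 63582 in Tdrkh-/- and 1113 in Tdrkh+/-, a log2 ratio of 5.76 (5.67 to 5.85), and took 86.9% and 47.6% of the long reads from position 800. For each 27 nt read there were 0.231 reads of 35 nt in Tdrkh-/- and 0.0342 in Tdrkh+/-. The 38 nt read numbered 10487 and 88, a log2 ratio of 6.82 (6.52 to 7.14). In Tdrkh-/- this 5′ end thus gave 3 separated lengths, of which 27 nt remained the commonest in both libraries.

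**Figure D2:**
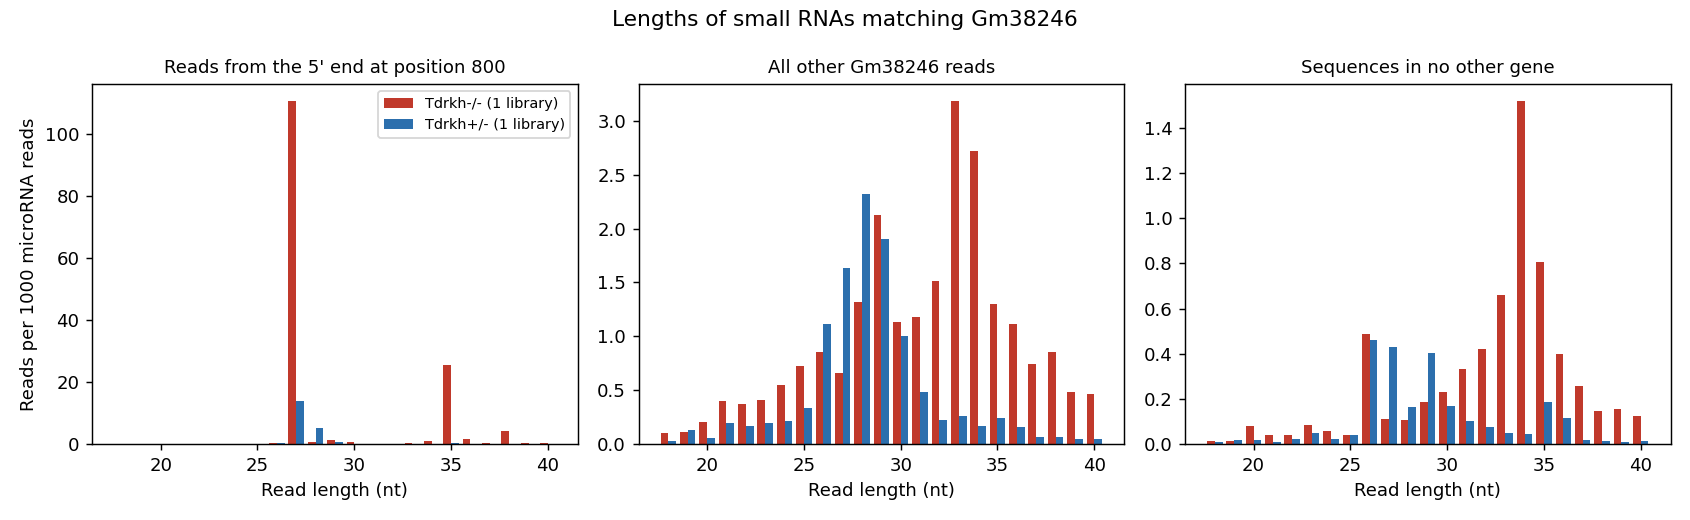
Bars give reads per 1000 microRNA reads (vertical axes starting at 0, with a scale of its own in each panel) by read length in nt, for the 5′ end at position 800, for all other Gm38246 reads and for sequences in no other gene, in 1 Tdrkh-/- and 1 Tdrkh+/- library. Position 800 peaks at 27 nt in both libraries, whereas the other reads peak at 33 nt in Tdrkh-/- and at 28 nt in Tdrkh+/-.

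The 3′ end of the 27 nt read, position 826, was shared by reads from 10 different 5′ ends. Together they had 284792 reads in Tdrkh-/- and 33770 in Tdrkh+/-, 67.7% and 45.0% of the gene's reads of 24 to 40 nt. The 33 nt read from position 794 had 3757 and 34 reads, a log2 ratio of 6.71 (6.22 to 7.24). Its neighbours from 798 (29 nt, 2967 and 305 reads) and 799 (28 nt, 1980 and 808 reads) had log2 ratios of 3.20 (3.03 to 3.38) and 1.22 (1.10 to 1.34). Of the reads that stop at position 826, 6 started upstream of position 800, and all 6 had more reads in Tdrkh-/-. The other 3, from 791, 795 and 797, had only 7 and 0, 59 and 1, and 9 and 0 reads. Over the 5′ ends of both whole libraries, 71.3% were 2-fold or more higher in Tdrkh-/- among long reads and 18.8% at piRNA size. With reads starting from 794 to 802 left out, the log2 ratios of the whole gene were -0.69 at piRNA size and 2.71 for long reads. The 3′ end at 834 had 64893 and 1368 reads and that at 827 had 2261 and 12888, and these ends mainly repeat the 35 nt and 28 nt reads.

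Among all small RNA 5′ ends of the series the one at position 800 was one of the most abundant. Of 78483 ends with at least 100 reads of 24 to 40 nt, compared by their first 24 nt, it ranked 4 in Tdrkh-/- and 6 in Tdrkh+/-. By this measure the end had 404620 and 67300 reads, as reads that do not match Gm38246 over their whole length were included. At piRNA size it ranked 1 and 9, and among long reads 16 and 70. It had U at base 1 and A at base 10. No antisense read began at position 809, where a partner overlapping it by 10 nt would begin, in either library, which allows up to 3 reads in each. Only 7 antisense reads in Tdrkh-/- and 3 in Tdrkh+/- overlapped the 27 nt at all, against 368818 and 50874 sense reads of 24 to 40 nt from position 800.

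The reads from position 800 cannot be assigned to Gm38246 rather than to another copy of the sequence. Of the 1494 stretches of 18 nt in the transcript, 253 (16.9%) occur in no other gene, 948 in 1 to 2 others and 293 in more. The 27 nt read lies whole in Gm37625 (ENSMUSG00000102782.1, a gene model awaiting experimental evidence at chr1:128084460-128089331, minus strand), opposite to that gene's strand, at chr1:128089185-128089211. Gm37625 shares 756 stretches of 18 nt with Gm38246, all on the opposite strand, and took in 95.2% (Tdrkh-/-) and 88.7% (Tdrkh+/-) of the Gm38246 reads of 24 to 40 nt. The shared part runs from position 1 to 946 of Gm38246 and spans the same 946 nt in Gm37625, where a further 3926 nt lie beyond the start of Gm38246.

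Within those 946 nt, sense reads that tell the copies apart were found for both. Reads held by both numbered 294932 in Tdrkh-/- and 60579 in Tdrkh+/- at piRNA size (log2 ratio 2.21) and 87197 and 4086 among long reads (4.34). Reads in Gm38246 and not in Gm37625 numbered 1203 and 844 at piRNA size (0.43) and 8298 and 1020 among long reads (2.95). Those in Gm37625 and not in Gm38246 numbered 1054 and 1845 (-0.89) and 3978 and 562 (2.75). Reads in 1 of these genes and not the other were thus higher in Tdrkh-/- among long reads, though they may match further genes. Their piRNA-size log2 ratios were below that of the reads in both, which include the 27 nt read (274969 and 32587). Without position 800, all sequences that match another gene too had a piRNA-size log2 ratio of -0.15, between 0.43 and -0.89. Over its whole length, Gm37625 had 34564 and 24522 piRNA-size reads on its opposite strand that do not match Gm38246, a log2 ratio of 0.42, and 128710 and 9072 long reads, a log2 ratio of 3.75.

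3 more genes shared at least 1% of the Gm38246 reads in a library, all on the same strand. The noncoding Gm30948 on chromosome 12 shared 669 stretches of 18 nt and 3.58% and 11.4% of the reads, and its sense reads outside Gm38246 had log2 ratios of -0.83 at piRNA size (14927 and 25224 reads) and 2.49 among long reads (18134 and 3068). Gm49116, a noncoding gene on chromosome 15, shared 0.410% and 1.94%, with log2 ratios of its other sense reads of -3.11 (701 and 5747 reads) and 1.14 (684 and 294). The processed pseudogene Gm6641 on chromosome 5 shared 0.272% and 1.74%, with values of -3.00 (38 and 288 reads) and 2.28 (138 and 27). In all 3 the sense reads outside Gm38246 were lower at piRNA size and higher among long reads in Tdrkh-/-. Antisense piRNA-size reads outside Gm38246 numbered 9956 and 5653 in Gm30948 (log2 ratio 0.74), 6 and 119 in Gm49116 (-4.39) and 14 and 13 in Gm6641 (0.03), so their direction was not shared.

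The single annotated gene within 50 kb, the noncoding Gm29230 at chr3:51058910-51074856 on the minus strand, lies 28804 nt away and had 0 sense reads at both lengths in both libraries, which allows up to 3 reads in each. The unannotated sequence around Gm38246 was not analysed here.

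Along the transcript, reads began at 894 combinations of position and strand, 102 of which (88 sense and 14 antisense) had at least 100 reads of 24 to 40 nt in the 2 libraries together. At piRNA size 96 of them had enough reads for a ratio, of which 23 lay 2-fold or more above Tdrkh+/- and 42 lay 2-fold or more below it; their median log2 ratio was -0.42. Among the 70804 5′ ends of both whole libraries, 18.8% lay above and 59.9% below by the same mark, and their median was -1.69. Those ends were counted by their first 24 nt, whether or not the rest of a read matched a transcript. The Gm38246 ends hold only reads that match over their whole length, so the 2 measures differ. Among long reads 76 of 95 ends lay above by this mark and 6 below, around a median of 2.87. The background there was 71.3% higher and 13.8% lower, with a median of 2.66.

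The same 5′ ends mostly carried longer reads in Tdrkh-/-. Of 101 ends found in both libraries, 92 (91.1%) had a higher mean length in Tdrkh-/-, with medians of 31.6 and 28.96 nt. Of all 74673 such ends of the libraries 84.0% had a higher mean length in Tdrkh-/-, with medians of 32.2 and 29.1 nt. Of 89 ends with a ratio at both lengths, 41 were below 0 at piRNA size and above 0 among long reads, 37 were above 0 at both, and 21 were at least 2-fold higher at both. Over the 61519 such ends of the libraries the shares were 51.0%, 28.2% and 18.3%. Position 800 was thus 1 of 21 ends of the last kind, and it held more reads than all others together in both libraries. The 33 ends whose reads mostly match no other gene had median log2 ratios of 0.04 and 3.59, and the other 69 had -0.73 and 2.34.

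**Figure D3:**
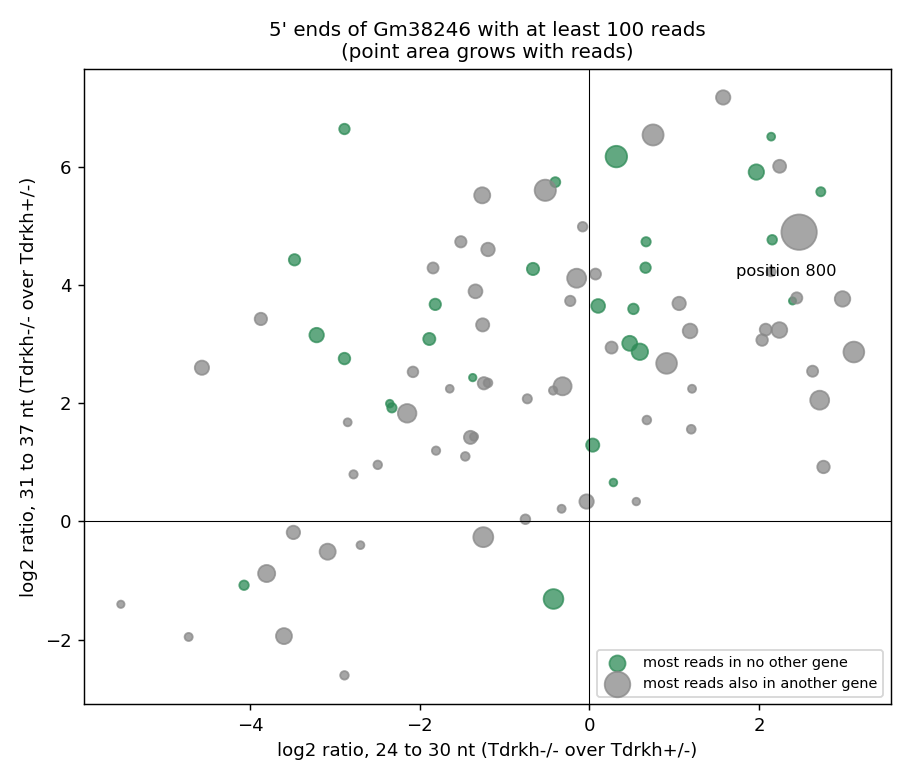
Each of the 89 points is a 5′ end of Gm38246 with at least 100 reads and a ratio at both lengths, plotted by its log2 ratio (Tdrkh-/- over Tdrkh+/-) at 24 to 30 nt and at 31 to 37 nt, coloured by whether most of its reads match another gene. The large point at position 800 lies to the right, at 2.47 and 4.89, while 41 ends lie left of 0 and above 0.

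Several abundant sense ends had almost all their Tdrkh-/- reads at long lengths. Position 897, in a stretch found in no other gene, had 54 piRNA-size reads in Tdrkh-/- and 41 in Tdrkh+/- and 4484 and 59 long reads, log2 ratios of 0.32 (-0.29 to 0.94) and 6.17 (5.80 to 6.57). The 34 nt sequence from this position alone had 3008 and 38 reads. Position 932, with 551 and 10 reads of its 33 nt sequence, had 124 and 30 piRNA-size reads and 634 and 10 long ones. The 35 nt sequence from position 897, with 1099 and 17 reads, ends directly before it. At position 493, which is shared with other genes, piRNA-size reads numbered 426 and 578 and long reads 3277 and 64, log2 ratios of -0.52 (-0.70 to -0.34) and 5.60 (5.24 to 5.98). Position 587 went further, with 40 and 42 piRNA-size reads, 749 and 41 long reads and 1327 and 57 reads of 38 to 40 nt.

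Other ends were lower in Tdrkh-/- at both lengths or changed little. Positions 749 and 750, which begin next to each other, had 64 and 846 and 40 and 459 piRNA-size reads, and 144 and 251 and 100 and 363 long reads. The 35 nt sequence from position 750, which matches no other gene, had 69 reads in Tdrkh-/- and 329 in Tdrkh+/-, a log2 ratio of -2.33 (-2.73 to -1.95). At position 373 there were 799 and 1799 piRNA-size and 159 and 181 long reads. By contrast, position 604 had fewer piRNA-size reads in Tdrkh-/-, with 355 and 1489, but more long reads, with 105 and 28.

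Position 1006 was the most abundant piRNA-size end among those whose reads mostly match no other gene. It had 1183 reads in Tdrkh-/- and 1501 in Tdrkh+/- there, a log2 ratio of -0.42 (-0.53 to -0.31), and only 20 and 47 long reads. Within it the 26 nt sequence was higher in Tdrkh-/- (886 and 388 reads, log2 ratio 1.11, 0.94 to 1.29) and the 29 nt sequence was lower (107 and 694, -2.78, -3.08 to -2.48). At position 800 the 27 nt read was likewise higher in Tdrkh-/- and the read 1 nt longer was lower. This likeness covers only these pairs, which were picked after their values were seen. From position 800 the reads of 29 nt (3423 and 1800, log2 ratio 0.85) and 30 nt (2146 and 524, 1.96) were higher too. The shorter read of 26 nt changed little there (872 and 773, 0.10). The 27 nt sequence from position 970 had 6 and 188 reads, a log2 ratio of -5.05 (-6.51 to -3.90).

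Sense reads made up nearly all of the gene's reads, and on both strands the log2 ratio was higher among long reads than at piRNA size. Sense reads had log2 ratios of 2.09 at piRNA size (299871 and 66798 reads) and 4.05 among long reads (100510 and 5751). Antisense reads had 0.37 (0.28 to 0.46), with 2254 and 1650 reads, and 2.31 (2.14 to 2.48), with 1861 and 356 reads. Among the antisense ends, position 118 had 356 and 148 piRNA-size reads and position 353 had 277 and 316. The antisense end at 1015, found in no other gene, had 215 and 198 piRNA-size reads and 31 and 12 long reads. Its 5′ end overlaps that of the sense end at 1006 by 10 nt.

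Reads from a single 5′ end share their first bases, so all from position 800 have U at base 1 and A at base 10. This end therefore raises both shares over all reads. Over all reads, 98.2% in Tdrkh-/- and 92.6% in Tdrkh+/- began with U at piRNA size, and 93.6% and 77.7% among long reads. Without the end at position 800 these shares were 71.0% and 74.6%, and 77.6% and 63.9%. A at base 10 was found in 39.8% and 39.0% of the remaining piRNA-size reads and in 70.3% and 41.7% of the remaining long reads. Over distinct sequences these shares were 40.8% and 38.5%, and 43.1% and 43.6%, so the libraries differed among long reads only when reads were counted. With position 800 included, A at base 10 was found in 96.4% and 82.1% of all piRNA-size reads. In antisense piRNA-size reads 38.5% and 47.0% began with U and 69.9% and 62.2% had A at base 10. In sense piRNA-size reads without position 800 these shares were 75.6% and 77.1% for U and 35.5% and 36.9% for A. Sense piRNA-size reads in no other gene had A at base 10 in 73.8% and 64.4%, close to or above the antisense share. A single end weighs heavily in these shares. Position 1006, which has A at base 10, had 1183 and 1501 piRNA-size reads, mostly in no other gene, against 2632 and 3709 in this class.

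Reads on opposite strands overlapped by 10 nt more often than by any other length at piRNA size. Of all read pairs with overlaps of 1 to 24 nt, weighed by the product of their counts, it took 64.4% in the Tdrkh-/- and 49.7% in the Tdrkh+/- library. An even spread over the overlaps would give 4.17%. Counting distinct sequences in place of reads gave 12.2% and 7.30%. A pair of 5′ ends carried most of this: the sense end at 1006 and the antisense end at 1015 gave 51.0% of the 10 nt pairs in Tdrkh-/- and 76.3% in Tdrkh+/-, and the ends at 109 and 118 gave a further 37.7% and 4.03%. The second largest pair in Tdrkh+/- was a different one, the sense end at 344 and the antisense end at 353, with 15.2%. Each library's own 2 largest such pairs were then left out, a setting chosen after the data were seen. The 10 nt overlap then took 26.6% and 11.5% of the remaining pairs, though the pairs removed differed between the libraries. Position 800 has no piRNA-size partner and so does not enter these values. Among long reads the 10 nt overlap took 13.4% and 8.26% of pairs, and the commonest overlap was 20 nt in the first library and 2 nt in the second. The 20 nt overlap came mostly from position 800 paired with an antisense end at 819, which had only 4 reads. Without position 800 the 10 nt overlap took 23.3% in the Tdrkh-/- library and was the commonest, and the other library was as before. Over distinct long sequences 10 nt was the commonest overlap in both libraries, at 10.8% and 11.2%.

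Reads that end right before the start of another read on the same strand were also counted, since successive cuts of 1 precursor leave such neighbours. A 5′ end directly after a 3′ end took 40.7% of pairs within 50 nt in the Tdrkh-/- library and 3.62% in the other, where an even spread would give 2%. In the Tdrkh+/- library the commonest distance was 22 nt, at 17.98%. Without position 800 the directly adjacent pairs took 10.7% and 1.79%, and a distance of 4 nt was the commonest in both libraries, at 14.6% and 5.22%. Over distinct sequences adjacent pairs took 3.42% and 2.61%, and 3.20% and 2.49% without position 800. At position 827, directly after the 27 nt read, 227 and 72 piRNA-size reads and 304 and 2 long reads began. Of the long reads 76.7% in Tdrkh-/- and 41.6% in Tdrkh+/- were followed by U in the transcript, and 37.3% and 28.4% without position 800.

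Set among the 3614 host genes with at least 500 sense piRNA-size reads, Gm38246 stood to the upper right. Levels 2-fold or more above Tdrkh+/- were found at piRNA size in 6.7% of hosts, among long reads in 77.9% and at both lengths in 6.29%, and levels 2-fold or more below it in 71.8% and 1.27%. Host medians were -1.56 (interquartile range -2.18 to -0.90) and 1.75 (1.09 to 2.52). With sense reads divided among genes, Gm38246 ranked 117 at piRNA size and 142 among long reads. Without position 800 its log2 ratios were -0.18 and 2.93, at ranks 459 and 587. The other hosts kept all their ends in this comparison, so these ranks set unlike sums side by side. By sequences in no other gene its sense values were -0.57 and 2.91, at ranks 312 and 378 of 2795 hosts, whose medians were -1.65 and 1.77. Of those hosts 1.65% lay 2-fold or more above and 78.1% below at piRNA size, 80.1% above and 1.4% below among long reads, and 1.4% above at both.

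**Figure D4:**
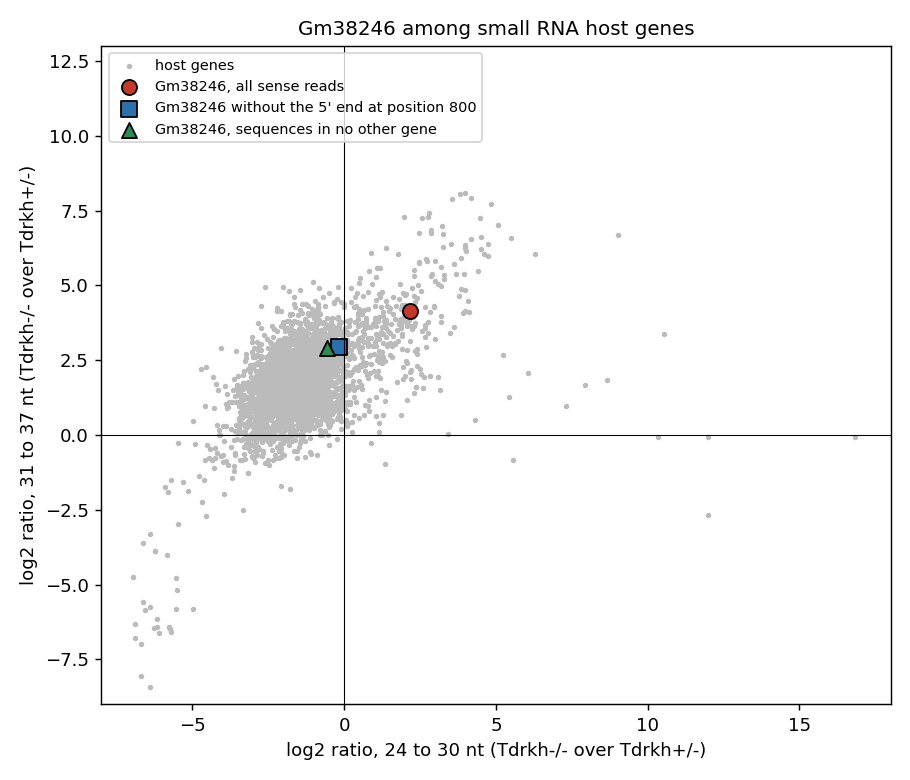
Each grey point is 1 of 3614 host genes, plotted by its log2 ratio (Tdrkh-/- over Tdrkh+/-) at 24 to 30 nt and at 31 to 37 nt. Gm38246 lies at 2.17 and 4.13 with all sense reads, and both without the 5′ end at position 800 (-0.18 and 2.93) and by sequences in no other gene (-0.57 and 2.91) it lies left of 0 at 24 to 30 nt and above 0 at 31 to 37 nt.

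The hosts nearest to Gm38246 by the pair of ratios also rested on shared sequence. Measured as the distance between the 2 log2 ratios, each from the same 2 libraries, they were Olfr635 (an olfactory receptor gene, 2.25 and 4.07), Gm37813 (2.30 and 4.21), Gm38284 (1.98 and 4.08), Vmn1r227 (a vomeronasal receptor gene, 2.26 and 3.94) and Gm47106 (1.95 and 4.29). Reads of sequences in no other gene made up at most 2.18% of their reads, the value for Olfr635, and 0% in Gm37813, Vmn1r227 and Gm47106.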

How the data were processed

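Each library came as a table in which the authors list every distinct sequence with its raw count of reads, and no normalization is recorded. Per the labels' protocols, RNA was gel-purified by size and read on an Illumina Genome Analyzer II. Bowtie and mm9 are named in the submitters' processing notes, whereas trimming, filters and versions were not given in the sources used here. All sequences (18 to 40 nt) were matched exactly on both strands to GENCODE M21 transcripts (GRCm38) with a matcher in Python 3.11.15 (NumPy 2.4.6, SciPy 1.17.1, pandas 2.3.3, Numba 0.67.0; figures with Matplotlib 3.10.9), whose strands differed from a simple text search in 0 of 60 sequences checked. A transcript was matched by 51.5% of reads in Tdrkh-/- and 46.4% in Tdrkh+/-. No genome was used, so introns, repeats and unannotated copies were not analysed here, and a sequence in no other annotated gene may occur elsewhere in the genome.

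Levels are reads per 1000 microRNA reads (18 to 25 nt, sense to microRNA genes). Ratios have exact conditional binomial intervals and shares Wilson intervals at 95%; a count of 0 was set to 3 counts. PCR copies carry no molecular identifiers here, so reads are not independent molecules. No test was run, as a genotype had 1 library, and 2-fold is a mark of size. Ratio calculations were tested on simulated data. For the ranks among hosts, a read was split equally over the genes it matches on the same strand. Its matches on the opposite strand were not counted in that split. The 5′ ends of the whole libraries were compared by their first 24 nt, whether or not the rest of a read matched a transcript. Alternatives were distinct sequences, sequences read once left out, narrower windows (26 to 28 and 33 to 36 nt), other scalings, single strands, the most abundant sequence left out, divided reads and, added after the data were seen, position 800, positions 794 to 802 or the 2 largest overlapping pairs of ends left out. Genes named are those sharing at least 1% of the reads, those within 50 kb and the 5 nearest by ratio; sequences named are among the 3 most abundant per library, window and class. The 5′ ends described one by one, the lengths from position 800 and the 2 copies compared were chosen after their values were seen. Members, lists and rules were chosen with earlier results of these data known.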

Additional observations from a re-analysis of the deposited data

Results flagged for a closer look

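Reads that begin with the first 18 nt of the 5′ end at position 800 but do not match Gm38246 over their whole length were outside all sums above. They numbered 43671 in Tdrkh-/- and 17814 in Tdrkh+/-, 10.6% and 25.9% of all reads with that start, a log2 ratio of 1.22 (1.19 to 1.24). In 38.4% and 75.03% of them the last base alone did not match. The commonest such 29 nt read has T as its last base, in capitals, and had 3229 and 10346 reads.
Read of 29 nt: tgcaagctcagaacccaacaaacacgtgT
All 81 sequences that differ from the 27 nt read by 1 base were found in both libraries, with 18.3 and 18.7 reads per 100 reads of the 27 nt read.

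Reads of 38 to 40 nt also lay outside the length windows compared. Gm38246 had 16254 of them in Tdrkh-/- and 493 in Tdrkh+/-, a log2 ratio of 4.97 (4.84 to 5.10). Sequences in no other gene had 1054 and 96, a log2 ratio of 3.38 (3.08 to 3.70).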

How the results depend on the processing

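The log2 ratio of all piRNA-size reads (2.06) turned negative with each distinct sequence counted once (-0.83), with the most abundant sequence of each library left out (-0.48), without position 800 (-0.21) and without positions 794 to 802 (-0.69). It was 2.22 in narrower windows, 1.64 per read listed, 1.49 per transcript-matching read, and 2.09 and 0.37 on the sense and antisense strands. With reads divided equally among the genes matched on either strand it was 2.05. Under the same settings in this order the long reads (3.99) gave 0.60, 2.88, 2.87, 2.71, 4.46, 3.57, 3.42, 4.05, 2.31 and 3.89, and 4.03 without sequences read once, so that they were above 0 under all of them. For sequences in no other gene the piRNA-size value (-0.46) was -0.69 with distinct sequences, -0.58 in narrower windows, -0.89 and -1.04 with the other scalings, -0.57 on the sense strand, -0.58 without the most abundant sequence, and reversed to 0.53 on the antisense strand. Their long value (2.89) was 0.74, 3.10, 2.47, 2.32 and, on the antisense strand, 1.76. Beyond the settings' own construction, the cause was not tested. No paired analysis was possible because each genotype had 1 library. Depth limits single ends with few reads in Tdrkh+/-, such as the 2 long reads at position 827, more than the sums.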
